A study of Rattus norvegicus with 46 samples.

Results

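Lcn2, Hp, Hpx, Orm1, Cp, Tf, Fetub and Slc40a1 encode secreted or membrane proteins of the acute-phase response and of iron and haem transport, and they were chosen by gene name as 8 of the 30045 genes listed in each of 4 count tables. All 8 were found once in every table. They were chosen with earlier results of these data known, so their share of calls does not describe an independently chosen set. Messenger RNA of lung and of whole blood was sequenced. The animals were old male rats of the inbred strain Fischer 344, called aged in the title of the series. Exposure was to airborne crystalline silica (Min-U-Sil 5, a fine quartz dust) over the whole body, 15 mg/m3 during 6 hours on each of 5 days. Control rats breathed filtered air in the same way, and both groups were sampled 1 day or 6 months after exposure. The exact age of the rats is not given in the labels used here, which describe healthy animals and name no transgene or deletion.

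The acute-phase response is the change in secreted proteins that inflammatory cytokines set off, mainly in liver and also in epithelia and leukocytes. Several of its proteins keep iron and haem out of reach of microbes and away from oxidation reactions. Lipocalin 2 binds bacterial siderophores, haptoglobin binds free haemoglobin and hemopexin binds free haem. Transferrin carries ferric iron in plasma. Ceruloplasmin oxidises ferrous iron as it leaves cells, and ferroportin, the product of Slc40a1, is the transporter through which cells export it.

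Lung had 6 silica and 4 air libraries at 1 day, and 5 silica and 2 air libraries at 6 months, after 5 pairs of near-identical lung libraries had each been counted as 1. In those pairs 9.62% to 11.6% of genes differed at p under 0.05 in a chi-square test, against 22.8% to 75.2% in the 46 other lung pairs. Libraries of a counted pair carry both numbers, as in silica 30-31. Blood had 6 silica and 6 air libraries at each time. The smallest blood library held 10631882 counts and the largest 17519959, and lung libraries held between 13369309 and 24638427. Levels are given as CPM, a gene's counts divided by the TMM-adjusted total of its library and scaled to a fixed depth. At the unadjusted totals 3 counts correspond to 0.122 to 0.224 CPM in lung and 0.171 to 0.282 CPM in blood. Sftpc, a surfactant gene of alveolar type 2 cells, reached at least 4800 CPM in every lung library and at most 0.211 CPM in blood. The 2 air libraries at 6 months stood apart: their summed lymphocyte markers were 1767 and 2179 CPM, against 282 to 734 CPM in the silica lungs of that time and 276 to 523 CPM in the air lungs at 1 day. Genes of cytotoxic lymphocytes, Prf1 and Nkg7 foremost, made up most of that sum, while the T cell gene Cd3e was at 11.6 to 25.6 CPM in the silica lungs and 3.23 and 5.01 CPM in these air lungs. Each lung result at 6 months rests on these 2 libraries. In blood, silica 11 at 1 day had the lowest S100a9 of all blood libraries (640 CPM), and air 25 at 6 months had the highest TMM factor (1.93).

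Promoters of the 3 members with the largest changes in lung, Lcn2, Hpx and Orm1, and of Slc40a1, which did not pass the test there, are shown to set side by side what lies before their start sites. They run from 250 bases before to 50 bases after the gene start in RefSeq's rat assembly GRCr8, at chr3:36081731-36082030 (minus strand) for Lcn2, chr1:169352106-169352405 (minus strand) for Hpx, chr5:81788259-81788558 (plus strand) for Orm1 and chr9:55543411-55543710 (minus strand) for Slc40a1. Capitals mark matches, on either strand, to the letters TTNNGNAA for C/EBP factors, GGGNNNNNCC for NF-kB, TTCNNNGAA for STAT factors, and TATAAA, the box named after it.
Lcn2: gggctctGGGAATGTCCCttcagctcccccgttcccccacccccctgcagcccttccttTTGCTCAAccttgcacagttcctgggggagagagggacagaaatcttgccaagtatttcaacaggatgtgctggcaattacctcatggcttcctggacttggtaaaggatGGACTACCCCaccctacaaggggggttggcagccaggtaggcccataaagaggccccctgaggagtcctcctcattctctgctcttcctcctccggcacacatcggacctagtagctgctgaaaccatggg
Hpx: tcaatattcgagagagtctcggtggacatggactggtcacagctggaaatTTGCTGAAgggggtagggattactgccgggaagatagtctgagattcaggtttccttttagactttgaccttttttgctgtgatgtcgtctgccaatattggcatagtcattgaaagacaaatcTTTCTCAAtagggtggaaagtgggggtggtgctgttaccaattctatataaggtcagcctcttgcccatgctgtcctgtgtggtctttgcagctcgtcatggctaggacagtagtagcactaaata
Orm1: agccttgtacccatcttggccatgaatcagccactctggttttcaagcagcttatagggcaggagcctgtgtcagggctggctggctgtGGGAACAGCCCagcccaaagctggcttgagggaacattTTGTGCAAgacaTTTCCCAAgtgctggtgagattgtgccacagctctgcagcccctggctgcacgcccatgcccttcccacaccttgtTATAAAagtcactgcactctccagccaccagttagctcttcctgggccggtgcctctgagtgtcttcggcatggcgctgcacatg
Slc40a1: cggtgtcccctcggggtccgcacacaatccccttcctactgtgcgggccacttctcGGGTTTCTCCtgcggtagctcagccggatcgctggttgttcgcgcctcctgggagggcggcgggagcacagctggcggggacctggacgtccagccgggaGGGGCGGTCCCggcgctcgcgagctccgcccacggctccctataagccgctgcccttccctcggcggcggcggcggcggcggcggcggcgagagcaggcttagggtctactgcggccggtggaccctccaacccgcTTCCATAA
The RefSeq table held promoters of 6 of the 8 members, all but those of Hp and Fetub. TTNNGNAA matched in 6 of 6, in a background of 41.3% of 33469 rat promoters of 300 bases. GGGNNNNNCC matched in Lcn2, Orm1 and Slc40a1, 3 of 6, against 47.3% of all promoters. TATAAA matched in Orm1, Cp and Tf, 3 of 6, against 14.2%, and TTCNNNGAA in 0 of 6, against 8.87%. In Lcn2 and Orm1 a GGGNNNNNCC match on 1 strand overlaps a match on the other by all but 1 base, and in Slc40a1 a pair of matches on the same strand overlaps likewise. In Orm1 the TTNNGNAA matches begin 123 and 111 bases before the gene start, and the one in Slc40a1 lies after it. These are matches of letters, and neither binding nor use of a site was measured.

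In lung 1 day after exposure, 7 of the 8 members rose in silica and Slc40a1 did not pass the test. Orm1, Lcn2 and Hpx had the largest changes, Hp, Fetub and Tf rose 2.45-fold, 2.33-fold and 2.08-fold, and Cp changed least of the 7, at 1.52-fold. Of all 15724 genes tested, 11.7% passed in either direction, which is 7.61% higher and 4.07% lower in silica. Without air 06 the count of all genes called was 1185 in place of 1836, and the same 7 members passed. The members' median log2 change was 1.26, beside 0.00 for all genes. All p-values are from edgeR's quasi-likelihood test, adjusted by Benjamini-Hochberg over all genes tested.

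Lcn2, the siderophore binder, lay between 38.7 and 53.9 CPM in the 6 silica lungs (median 50.2), against 8.43, 7.13, 9.86 and 5.16 CPM in the 4 air lungs. Every silica library was above every air library. The means were 48.7 ± 5.87 CPM in silica and 7.64 ± 1.998 CPM in air (SD, n = 6 and 4), and the log2 fold change between them was 2.68 ± 0.16 (SE), with an adjusted p = 3.08e-06.

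Hp, whose product captures haemoglobin released from red cells, ranged from 110 to 131 CPM in silica lungs (median 114), against 52.6, 44.8, 46.1 and 45.9 CPM in air lungs. The groups did not overlap, and the silica libraries other than silica 15 lay between 110 and 115 CPM. The log2 fold change was 1.29 ± 0.06 (adjusted p = 3.45e-08). Hpx, whose product takes up free haem, ranged from 9.41 to 12.8 CPM in silica (median 11.9), against 2.73, 2.48, 2.54 and 2.70 CPM in air. The 4 air values were nearly equal and all below the lowest silica value. Its log2 fold change was 2.12 ± 0.12 (adjusted p = 1.29e-07).

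Orm1 encodes orosomucoid, an acute-phase glycoprotein that carries lipophilic compounds. It was a low-level gene in these lungs: silica libraries ranged from 1.67 to 3.36 CPM (median 2.63), against 0.356, 0.255, 0 and 0.184 CPM in air. The air values rest on 13 counts over 4 libraries and the silica values on 247 counts over 6. The groups did not overlap, and the log2 fold change was 3.56 ± 0.43 (adjusted p = 0.000143). Orm1 passed the count filter through its silica libraries alone, so the size of this change is uncertain.

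Cp ranged from 206 to 299 CPM in silica (median 254), against 159, 158, 169 and 171 CPM in air. The lowest silica value was still above the highest air value. Its log2 fold change was 0.61 ± 0.08 (adjusted p = 0.00065). Tf, the plasma iron carrier, ranged from 175 to 215 CPM in silica (median 203), against 102, 82.7, 102 and 94.8 CPM in air. The groups were well separated, with a log2 fold change of 1.06 ± 0.07 (adjusted p = 6.69e-07).

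Fetub encodes fetuin-B, a secreted protease inhibitor of the cystatin superfamily. It ranged from 253 to 309 CPM in silica lungs (median 284), against 130, 121, 121 and 112 CPM in air lungs. The groups did not overlap, and the log2 fold change was 1.22 ± 0.06 (adjusted p = 4.08e-08). Slc40a1 ranged from 24.5 to 30.9 CPM in silica (median 26.3), against 25.8, 24.2, 22.3 and 27.4 CPM in air. Its groups overlapped. The log2 difference of 0.10 had a 95% interval from -0.07 to 0.27 (adjusted p = 0.498). Slc40a1 counts were not whole in 80.4% of samples, where reads were shared with other transcripts, so its level is uncertain to that extent. Counts of the other 7 members were whole in every sample (tolerance 0.01).

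**Figure D1:**
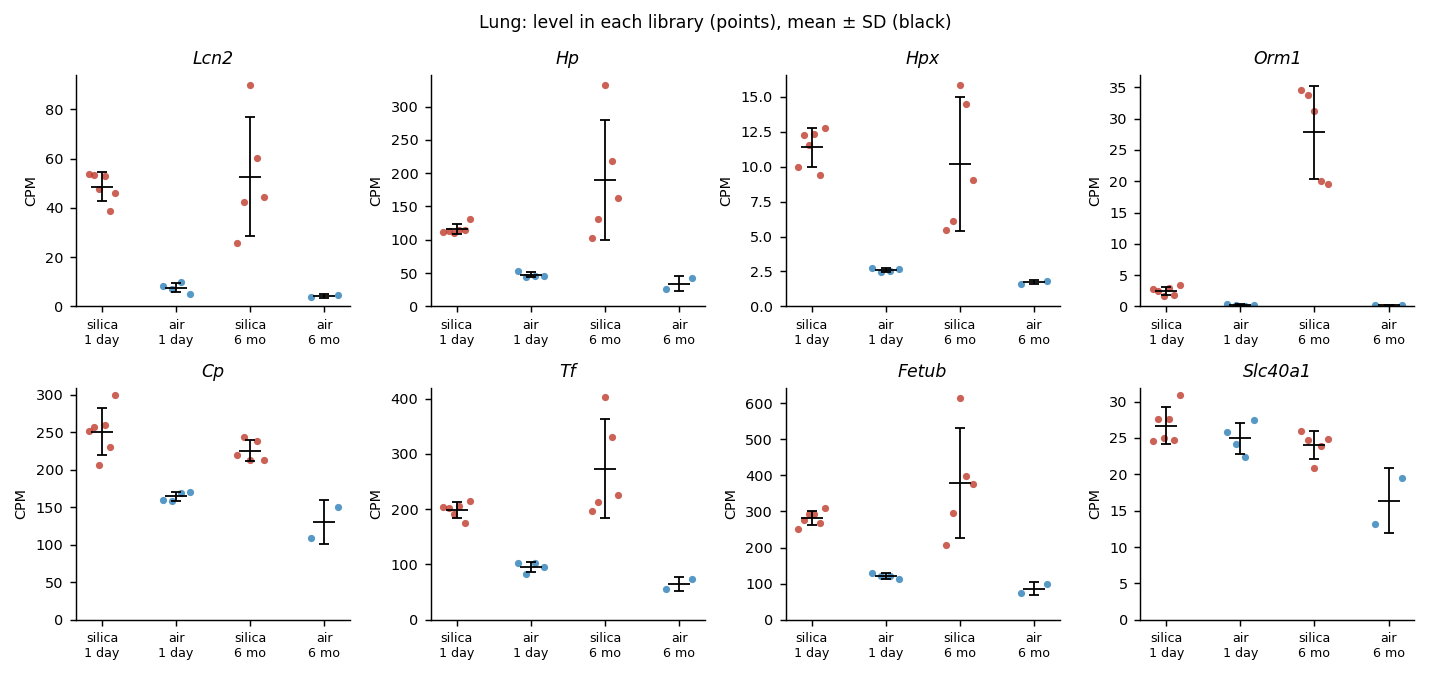
Level of each member in lung in CPM (vertical axes, each from 0), by exposure and time. Points are libraries, silica in red and air in blue, and black bars give the mean ± SD. Silica and air points are apart for every member except Slc40a1 at 1 day. The share of all genes with such groups was not counted. Silica values at 6 months are widely spread for Lcn2, Hp, Hpx, Tf and Fetub, and Orm1 stands highest in silica lungs at 6 months.

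In lung 6 months after exposure, the same 7 members were higher in silica, and Slc40a1 again did not pass. Of 16265 genes tested 19.6% passed in either direction, 9.52% higher and 10.1% lower in silica. The members' median log2 change was 2.30, beside 0.00 for all genes. Orm1 stood out by size, and the other 6 had log2 fold changes between 0.79 and 3.65. Without air 19-24 only Orm1 passed (log2 between 6.89 and 7.22 when any 1 library was left out, adjusted p = 0.0374 without air 19-24), and the number of genes called in all fell to 57. In that fit air is a single library assumed to vary like the silica libraries. Without air 20-25 the count of all genes was 1063, without silica 34 it was 1756 and without silica 35 it was 1749, in place of 3190. Without air 20-25 Hp (adjusted p = 0.0631), Hpx (0.0856) and Fetub (0.0651) missed the threshold.

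Lcn2 was at 25.9, 42.4, 89.8, 60.4 and 44.3 CPM in silica 30-31, 32, 33, 34 and 35, against 3.69 and 4.64 CPM in air 19-24 and 20-25. The groups did not overlap, although the silica values ranged widely. With 5 silica and 2 air libraries groups can lie apart by chance. The share of all genes whose groups lie apart was not counted. The log2 fold change was 3.65 ± 0.53 (adjusted p = 0.00715, 0.0922 without air 19-24 and 0.0435 without air 20-25). In the same order of libraries, Hp was at 103, 131, 333, 219 and 163 CPM in silica, against 26.2 and 42.1 CPM in air. Every silica library was above both air libraries, and the log2 fold change was 2.47 ± 0.51 (adjusted p = 0.0160, and 0.172 without air 19-24). Hpx was at 5.44, 6.10, 15.9, 14.51 and 9.05 CPM in silica, against 1.62 and 1.82 CPM in air. Again the groups were apart, with a log2 fold change of 2.56 ± 0.53 (adjusted p = 0.0164, and 0.162 without air 19-24).

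Orm1 was at 34.6, 33.8, 31.2, 20.05 and 19.6 CPM in silica, against 0.231 and 0.182 CPM in air. The air values are 4 counts in each averaged library, and the silica libraries held 312 to 826 counts. The log2 fold change was 7.05 ± 0.46 (adjusted p = 0.00284) with a 95% interval from 5.98 to 8.12. It was the member with the largest change. As at 1 day, it passed the count filter through its silica libraries alone, and the size rests on few air counts.

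Cp was at 219, 243, 213, 238 and 213 CPM in silica, against 109 and 151 CPM in air. The silica values were close to each other and above both air values, and the log2 fold change was 0.79 ± 0.15 (adjusted p = 0.0132, 0.134 without air 19-24 and 0.0322 without air 20-25). The Cp value was 0.60 without air 19-24 and 1.06 without air 20-25. Tf was at 196, 213, 402, 331 and 225 CPM in silica, against 56.2 and 73.8 CPM in air. The lowest silica library was above both air libraries, and the log2 fold change was 2.07 ± 0.34 (adjusted p = 0.00919, 0.115 without air 19-24 and 0.0465 without air 20-25). Fetub was at 208, 296, 616, 399 and 377 CPM in silica, against 73.7 and 98.9 CPM in air. The groups did not overlap, and the log2 fold change was 2.13 ± 0.42 (adjusted p = 0.0141, and 0.161 without air 19-24).

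Slc40a1 was at 25.9, 24.7, 20.8, 23.9 and 24.8 CPM in silica, against 13.2 and 19.5 CPM in air. The groups did not overlap here, unlike at 1 day, but the log2 difference of 0.55 ± 0.18 missed the threshold (adjusted p = 0.0648, 95% interval 0.14 to 0.96). The call depends on single libraries and settings: the difference passed without air 20-25 (0.88) and without silica 33 (0.62), with every library as its own sample (0.57), with DESeq2 (0.56) and with all 4 lung groups in 1 fit (0.52). On 1 common lung scale Slc40a1 averaged 24.3 CPM in silica lungs at 6 months, 26.4 CPM in silica lungs at 1 day, 16.9 CPM in air lungs at 6 months and 24.7 CPM in air lungs at 1 day. The air lungs at 6 months were the group that stood lowest.

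**Figure D2:**
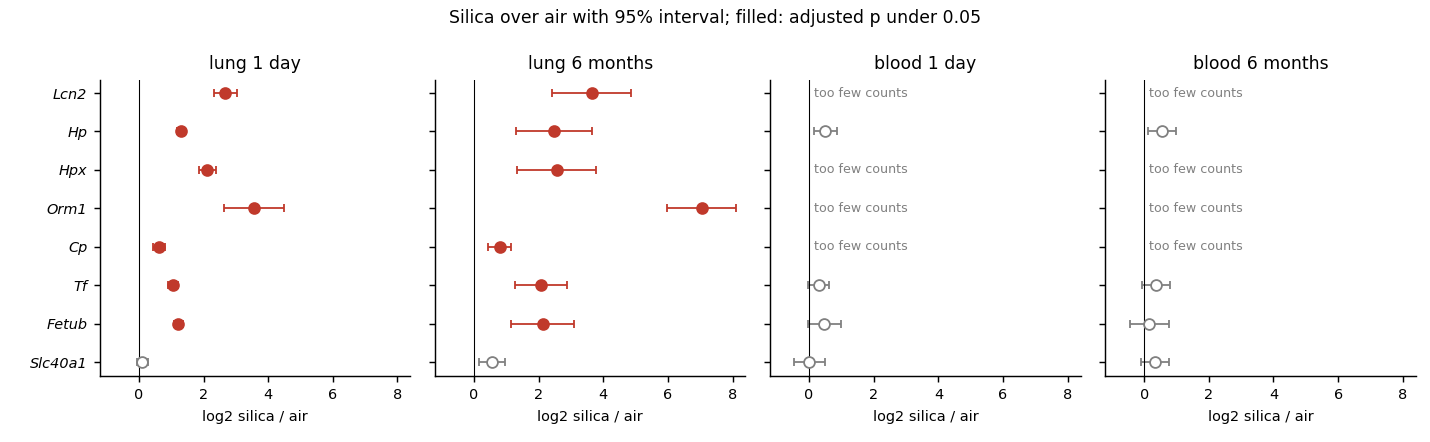
Log2 of silica over air for each member (horizontal axis) with its 95% interval, in lung and blood at 1 day and 6 months. Filled points passed an adjusted p of 0.05 and open points did not. The 7 filled points of lung lie right of 0 at both times, with wider intervals at 6 months, and none of the 4 members tested in blood passed.

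Among the 5 silica lungs at 6 months, Lcn2, Hp, Hpx, Tf and Fetub shared 1 order of libraries, with silica 33 highest, then 34, 35, 32 and 30-31. Silica 33 was above silica 30-31 by a factor of 3.47 for Lcn2, 3.22 for Hp, 2.92 for Hpx, 2.97 for Fetub and 2.05 for Tf. Orm1 did not follow this order: it was highest in silica 30-31 and lowest in silica 35, and silica 33 was at 0.903 of silica 30-31. Cp differed by at most 1.14 between any silica libraries at this time. At 1 day the highest silica library was above the lowest by 1.39 for Lcn2, 1.19 for Hp, 1.36 for Hpx, 1.23 for Tf and 2.01 for Orm1. Summed neutrophil markers in the silica lungs at 6 months ranged from 1314 to 3478 CPM, and summed type 2 markers from 25409 to 54970 CPM. Their part in the spread of the members was not tested.

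**Figure D3:**
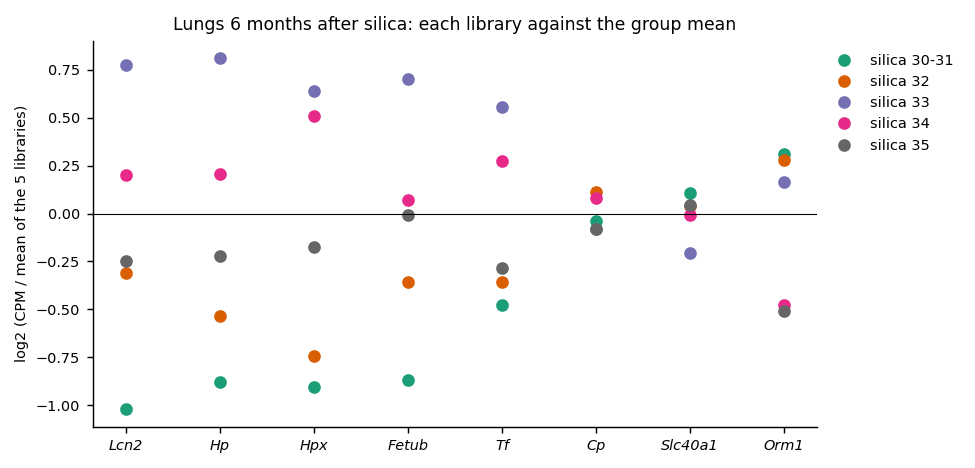
Each of the 5 silica lung libraries at 6 months against the mean of the 5, as log2 (vertical axis), by member. Lcn2, Hp, Hpx, Fetub and Tf have silica 33 on top and silica 30-31 at the bottom, while Cp and Slc40a1 stay near 0 and Orm1 has silica 30-31 on top.

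Whether the silica effect differed between the times was tested as an interaction, in which 26.8% of 16568 genes passed. The log2 effect of silica at 6 months exceeded that at 1 day by 3.46 ± 0.77 for Orm1 (adjusted p = 0.00436), by 0.99 ± 0.28 for Tf (0.0160) and by 1.15 ± 0.40 for Hp (0.0444). These were 3 of 8 members. Fetub (0.89 ± 0.33, adjusted p = 0.0603), Slc40a1 (0.43 ± 0.17, 0.0733), Lcn2 (0.95 ± 0.46, 0.145), Hpx (0.41 ± 0.43, 0.517) and Cp (0.16 ± 0.16, 0.491) did not. The Orm1 difference passed whichever single library was left out. Its size rests on few air counts at both times, as Orm1 passed the count filter through silica lungs alone. Without air 19-24 the Tf difference was 0.81 (adjusted p = 0.146) and the Hp difference 0.86 (0.288), and Hp kept its call in only 4 of the 17 fits that leave out 1 library. Without silica 30-31 at 6 months, Lcn2 (1.12, adjusted p = 0.035) and Fetub (1.04, 0.00638) passed, and Fetub also without silica 32 (0.98, 0.0455). Slc40a1 passed without air 20-25 (0.77, adjusted p = 0.00786), without silica 33 (0.48, 0.0328) and without silica 15 at 1 day (0.49, 0.0451). On the common scale Orm1 averaged 28.2 CPM in silica lungs at 6 months, 2.48 CPM in silica lungs at 1 day, 0.213 CPM in air lungs at 6 months and 0.197 CPM in air lungs at 1 day. Hpx in silica lungs was at 10.3 CPM at 6 months and 11.2 CPM at 1 day, and its air lungs were at 1.77 CPM at 6 months and 2.59 CPM at 1 day. Lcn2 was likewise at 53.1 CPM at 6 months and 48.1 CPM at 1 day in silica lungs, with 4.30 CPM at 6 months and 7.57 CPM at 1 day in air lungs. Each time was deposited as a table of its own, so time and table cannot be told apart in these levels.

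In whole blood no member passed at either time. Of 11876 genes tested at 1 day 0% passed (0 genes, 430 at an unadjusted p under 0.05, and 0 with DESeq2), and of 11615 at 6 months 0% passed (0 genes, 720 at an unadjusted p under 0.05, and 7 with DESeq2). Only Hp, Tf, Fetub and Slc40a1 had enough counts to be tested, with a median log2 difference of 0.38 at 1 day and 0.35 at 6 months, beside -0.01 and 0.01 for all genes. The mean log2 TMM factor of silica minus that of air was -0.11 at 1 day and -0.32 at 6 months in blood, so scaling by library size alone lowers the differences there. Summed neutrophil markers in blood had medians of 5488 CPM in silica and 3771 CPM in air at 1 day, and 5287 CPM in silica and 3416 CPM in air at 6 months, and their part in these differences was not tested.

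Hp in blood ranged from 61.4 to 85.4 CPM in silica at 1 day (median 67.0), against 38.8 to 71.7 CPM in air (median 46.1). Air 08 was the single air library above the lowest silica library. The log2 difference was 0.50 ± 0.16 (unadjusted p = 0.00824, adjusted p = 1.00 by edgeR). At 6 months Hp ranged from 44.2 to 73.6 CPM in silica (median 63.4), against 23.4 to 60.8 CPM in air (median 39.0). The groups overlapped, and the log2 difference was 0.55 ± 0.21 (unadjusted p = 0.0184, adjusted p = 0.658 by edgeR). With library size alone it was 0.30.

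Tf in blood ranged from 238 to 397 CPM in silica at 1 day (median 269), against 204 to 313 CPM in air (median 214). At 6 months it ranged from 225 to 291 CPM in silica (median 255), against 99.2 to 260 CPM in air (median 205). The groups overlapped at both times, and the 95% interval of the log2 difference ran from -0.04 to 0.63 at 1 day and from -0.07 to 0.81 at 6 months. Fetub ranged from 10.1 to 19.1 CPM in silica at 1 day, against 4.84 to 15.6 CPM in air, and from 6.54 to 10.5 CPM in silica at 6 months, against 2.43 to 11.1 CPM in air. Its intervals were -0.04 to 0.97 and -0.44 to 0.76, and with library size alone the value at 6 months was -0.05. Slc40a1 ranged from 56.8 to 182 CPM in silica at 1 day (median 130), against 92.8 to 143 CPM in air (median 133). At 6 months it ranged from 95.9 to 156 CPM in silica (median 122), against 51.2 to 123 CPM in air (median 108). Its groups overlapped at both times, with intervals from -0.47 to 0.48 at 1 day and from -0.10 to 0.77 at 6 months. With library size alone its value at 1 day was -0.04.

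Lcn2, Hpx, Orm1 and Cp were barely detected in blood. At 1 day Lcn2 had 11 counts over the 6 silica libraries and 13 over the 6 air libraries, and at 6 months 18 and 21. Hpx had 14 counts in silica and 8 in air at 1 day, and 7 in silica and 7 in air at 6 months. Cp had 31 in silica and 36 in air at 1 day, and 42 in silica and 38 in air at 6 months. Orm1 had 35 counts in silica and 42 in air at 1 day, of which air 08 held 18, and 59 in silica and 26 in air at 6 months. Differences in Lcn2, Hpx and Cp were not detectable at this depth. Orm1 at 6 months also fell under the count filter, and with no filter its log2 difference was 1.69 (unadjusted p = 0.00295, adjusted p = 0.634 by edgeR), and with DESeq2 1.72 (unadjusted p = 0.000945, adjusted p = 0.527).

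**Figure D4:**
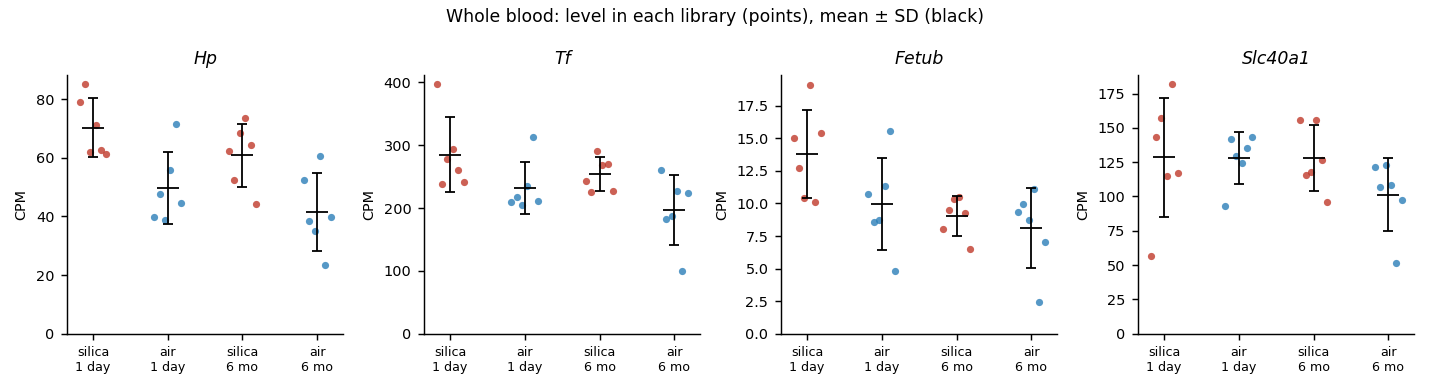
Level in whole blood in CPM (vertical axes, each from 0) of the 4 members with enough counts to be tested, by exposure and time. Points are libraries, silica in red and air in blue, with mean ± SD in black, and silica and air points overlap in all panels.

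The silica effect was also set against that of the other tissue, for the 4 members with enough counts in blood. Lcn2, Hpx, Orm1 and Cp passed the count filter through lung alone, and no difference between tissues is given for them. At 1 day 0.192% of 16148 genes passed the test of the effect in blood minus the effect in lung, and 0 of the 4 members did. Hp (-0.77, adjusted p = 0.151) and Tf (-0.74, 0.151) missed the threshold, and both passed without blood silica 11, at -0.79 (0.0415) and -0.84 (0.00739). At 6 months 1.17% of 16444 genes passed, among them Tf (-1.84 ± 0.40, adjusted p = 0.0264) and Hp (-2.06 ± 0.49, 0.0405), whose effect was smaller in blood. Without lung air 19-24 the adjusted p was 0.434 for Tf and 0.546 for Hp, and without lung air 20-25 it was 0.0999 for Tf and 0.109 for Hp. Fetub (-2.12, adjusted p = 0.0540) passed without blood air 25 (-2.40, 0.00105) and without lung silica 30-31 (-2.27, 0.0193). The Hp call was kept in 4 of the 19 fits that leave out 1 library, and the Tf call was also lost without lung silica 34 (-1.77, 0.0556). Slc40a1 showed no difference past the threshold at 1 day (-0.05, 95% interval -0.63 to 0.53) or 6 months (-0.35, -1.05 to 0.34).

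Other acute-phase genes also changed in lung. They come from lists that, like the lists below, were written with earlier results of these data known. Of 15 tested genes of a list of acute-phase proteins raised in inflammation, 12 rose in silica and 0 fell at 1 day, with a median log2 change of 0.81 beside 0.00 for all genes. At 6 months 13 of 16 rose and 0 fell, with a median of 1.51. Over all genes 7.61% were higher and 4.07% lower at 1 day, and 9.52% higher and 10.1% lower at 6 months. Without air 19-24 the list kept 0 calls at 6 months (median 1.42) and without air 20-25 it kept 5 (median 2.02). C3, the central complement component, was at 1348 ± 113 CPM in silica and 461 ± 46.5 CPM in air at 1 day (SD, n = 6 and 4), and its log2 change was 1.55 at 1 day (adjusted p = 5.71e-08) and 2.69 at 6 months (0.00508, 0.0672 without air 19-24 and 0.0284 without air 20-25). C4bpa, a complement inhibitor, rose by 1.48 at 1 day and 2.54 at 6 months, and Fgg, a fibrinogen chain, by 0.58 and 1.51. Il1rn, the interleukin 1 receptor antagonist, rose by 0.81 and 2.19. Of the 9 genes of a list lowered in inflammation, such as Alb and Ahsg, 1 had enough counts to be tested in lung. It did not pass at either time, and the list holds none of the members.

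Of all genes tested 7.61% were higher and 4.07% lower at 1 day, and 9.52% higher and 10.1% lower at 6 months. Among haem-handling genes 3 of 17 rose and 1 fell at 1 day, with a median log2 change of -0.01, beside 0.00 for all genes. At 6 months 6 of 17 haem-handling genes rose and 1 fell, with a median of 0.46. Without air 19-24 0 passed at 6 months, and without air 20-25 1 rose and 1 fell. Pgrmc1, a haem-binding membrane protein, fell by 0.18 at 1 day (adjusted p = 0.0196), and Hebp2 fell by 1.37 at 6 months (0.0128, 0.170 without air 19-24 and 0.0415 without air 20-25). Hmox1, which degrades haem, was at 77.7 ± 3.58 CPM in silica and 40.9 ± 3.42 CPM in air at 1 day, and at 126 ± 27.9 CPM in silica and 42.2 ± 3.397 CPM in air at 6 months. Its log2 change was 0.93 at 1 day (adjusted p = 3.53e-07) and 1.57 at 6 months (0.0088, 0.110 without air 19-24 and 0.0504 without air 20-25). Hebp1, a haem-binding protein, rose by 0.29 and 1.14. Counts of Pgrmc1 were not whole in 97.8% of samples, so its level is uncertain. Alas1, which starts haem synthesis, was at 0.02 at 1 day (adjusted p = 0.922) and rose by 1.02 at 6 months (0.0089). Of the receptors that clear the members' complexes, Cd163, for haptoglobin with haemoglobin, rose by 0.33 at 1 day (adjusted p = 0.0365) and was at -0.83 at 6 months (0.125). Lrp1, for hemopexin with haem, was at 0.17 (adjusted p = 0.103) and 0.38 (0.438).

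Of 28 tested iron-handling genes 8 rose and 3 fell at 1 day, with a median log2 change of 0.06. The shares over all genes at 1 day were 7.61% higher and 4.07% lower. Of 30 iron-handling genes tested at 6 months 6 rose and 0 fell, with a median of 0.11. Over all genes at 6 months 9.52% were higher and 19.6% passed in either direction, and with either air library left out 0 of the 30 passed. Tfrc, the transferrin receptor, rose by 0.52 at 1 day (adjusted p = 0.00203) and was at 0.23 at 6 months (0.427). The metal importers Slc11a2 and Slc39a8 rose at both times, Slc11a2 by 0.67 and 0.86 and Slc39a8 by 0.44 and 0.71. Slc11a1, the phagosomal metal transporter, rose by 0.20 at 1 day (adjusted p = 0.0484) and 1.21 at 6 months (0.0181). The ferritin chains Fth1 (-0.14, adjusted p = 0.0783, and 0.85, 0.0814) and Ftl1 (0.01, 0.961, and 1.17, 0.0508) passed at neither time, and their counts were not whole in 100% of samples, so their levels are uncertain. Slc22a17, described as a lipocalin 2 receptor, was at 0.03 and 0.49 and did not pass. Hamp, which encodes hepcidin, the hormone that removes ferroportin from the membrane, had too few counts at 1 day and was at -0.49 at 6 months (adjusted p = 0.716).

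Over all genes tested 7.61% were higher and 4.07% lower at 1 day, and 9.52% higher and 10.1% lower at 6 months. In the list of cytokines and regulators that drive acute-phase genes, 9 of 23 rose and 0 fell at 1 day (median 0.10). In this list 11 rose and 2 fell at 6 months (median 0.55). At 6 months 0 rose and 1 fell without air 19-24, and 2 rose and 1 fell without air 20-25. Il1b rose to 43.0 ± 7.01 CPM in silica, against 24.95 ± 3.51 CPM in air, at 1 day, and to 50.3 ± 10.2 CPM in silica, against 9.39 ± 0.881 CPM in air, at 6 months. Its log2 change was 0.79 at 1 day (adjusted p = 0.00279) and 2.42 at 6 months (0.0041, 0.0558 without air 19-24 and 0.0254 without air 20-25). Osm, an interleukin 6 family cytokine, rose by 0.92 and 0.97, its receptor chain Osmr by 0.42 and 0.76, and Nfkbiz, a nuclear co-regulator of NF-kB that is needed for Lcn2 induction in mouse cells, by 0.70 and 0.98. Socs3, Cebpb and Cebpd passed at 6 months alone, at 0.89, 0.79 and 0.89, and were at 0.28, -0.26 and -0.35 at 1 day. Their calls at 6 months need both air libraries. The changes were 1.04, 0.70 and 0.79 without air 19-24, and 0.78, 0.93 and 1.04 without air 20-25. A test of the difference between the times is not given for these genes. Stat3 rose by 0.19 at 1 day (adjusted p = 0.0107) and was at -0.06 at 6 months (0.833). Il6 had too few counts to be tested in lung, at a mean of 0.610 CPM in silica and 0.214 CPM in air at 1 day. Hnf4a, a regulator of liver genes, fell by 3.41 at 6 months, where it was at 5.43 ± 2.97 CPM in silica and 57.6 ± 34.4 CPM in the 2 air lungs that stood apart. In blood 0 genes of these 5 lists passed.

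**Figure D5:**
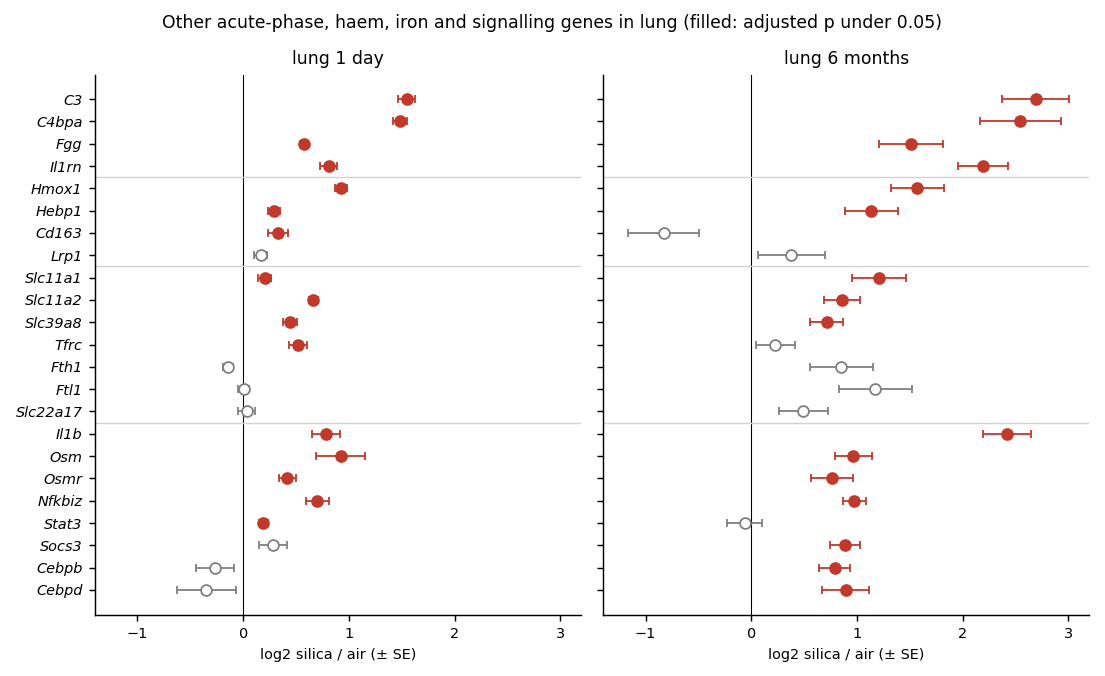
Log2 of silica over air (horizontal axis, ± SE) of other acute-phase, haem, iron and signalling genes in lung at 1 day and 6 months, in 4 blocks separated by grey lines. Filled points passed an adjusted p of 0.05. C3, C4bpa, Fgg, Il1rn, Hmox1, Hebp1 and Il1b lie further right at 6 months, where values rest on 2 air libraries. A test of the difference between the times is not given for the genes shown. The ferritin chains are open at both times.

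Markers of several cell types moved in the same lungs. The shares over all genes tested were 7.61% higher and 4.07% lower at 1 day, and 9.52% higher and 10.1% lower at 6 months. Of 13 tested neutrophil markers 8 rose at 1 day and of 14 at 6 months 10 rose, none falling at either time. Their summed level was 1330 to 1754 CPM in silica (median 1406) and 460 to 554 CPM in air (median 468) at 1 day, and 1314 to 3478 CPM in silica and 281 to 384 CPM in air at 6 months. Cd177, which was at 723 CPM in silica and 159 CPM in air at 1 day, made up a large share of the lung sum and was at about 10.4 CPM in silica and 10.3 CPM in air in blood at that time. Without Cd177 the sum in lung was 651 to 947 CPM in silica and 279 to 376 CPM in air at 1 day, and 888 to 2649 CPM in silica and 190 to 249 CPM in air at 6 months. The defining marker Mpo was at 0.310 CPM or less in every lung library and Ltf, another granule gene, was close to 0. Both were also near 0 in blood. Mpo was at 0.238 CPM or less in every blood library, and Ltf averaged 0.106 CPM or less in every blood group. In blood, where S100a9 was at 640 to 3557 CPM, Lcn2 had at most 6 counts in any library. Of 13 tested macrophage markers 7 rose and 1 fell at 1 day, and of 14 at 6 months 4 rose and 1 fell, with summed levels of 1011 to 1150 CPM in silica and 843 to 901 CPM in air at 1 day, and 1072 to 1434 CPM in silica and 1124 to 1133 CPM in air at 6 months. Of 10 type 2 markers 7 rose at 1 day and 8 at 6 months, and their sum was 28443 to 32184 CPM in silica and 22705 to 25254 CPM in air at 1 day, and 25409 to 54970 CPM in silica and 13947 to 16899 CPM in air at 6 months. Airway secretory markers rose in 3 of 10 at 1 day and 2 of 10 at 6 months. Their sum overlapped at 1 day, at 4000 to 6087 CPM in silica and 4405 to 6716 CPM in air. At 6 months it was 4458 to 8947 CPM in silica and 2158 to 4185 CPM in air. Without air 19-24 none of these marker lists held a call at 6 months, and without air 20-25 calls of higher level numbered 6 for neutrophil, 1 for macrophage, 1 for type 2 and 2 for airway secretory markers. The part of these cell types in the members' levels was not tested, and in whole tissue more cells of a type and more RNA per cell cannot be told apart.

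The hepatocyte-defining markers Alb, Apoa2 and Cps1 were at or near 0 in lung, with at most 0.251 CPM of Alb, 0.0628 CPM of Apoa2 and 0.255 CPM of Cps1 in any lung library. The whole hepatocyte list summed to 19.01 to 37.5 CPM in silica and 38.6 to 43.3 CPM in air at 1 day, and to 20.4 to 34.6 CPM in silica and 16.4 to 18.4 CPM in air at 6 months, and 0 of its tested genes passed at either time. Erythroid markers passed in 0 of 8 at 1 day and 0 of 11 at 6 months. Lymphocyte markers passed in 0 of 14 at 1 day. At 6 months 7 of 13 were higher and 4 lower in silica, beside 9.52% higher and 10.1% lower over all genes. The list's median log2 change was 1.015, and it was 1.56 without air 19-24 and 1.74 without air 20-25. The 4 lower ones were genes of cytotoxic lymphocytes, Nkg7 (59.2 CPM in silica and 463 CPM in air), Prf1 (154 CPM in silica and 1112 CPM in air), Gzma and Klrd1. At 1 day Nkg7 was at 44.3 CPM in silica and 54.2 CPM in air, so the air lungs at 6 months were the group that stood apart. The 4 genes lie in a fixed marker list and were named after their values were seen.

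The genes whose levels were most like each member's over the 17 lung libraries were found by Pearson r of log2 CPM among 15654 genes. These libraries share tissue, exposure groups and markers, so the values describe likeness only. Hp, Tf and Fetub were close to each other, with r of 0.990 for Hp with Fetub and 0.989 for Hp with Tf. The gene most like Fetub was Cd68, a macrophage lysosomal protein (0.992), and Chi3l1, a chitinase-like protein, was close to Hp (0.988) and Tf (0.984). Lcn2 was closest to Ly6i (0.988), Cd177 (0.986) and Noxo1 (0.983), and Hpx to Cd177 (0.975) and Lcn2 (0.974). Counts were not whole in 47.8% of samples for Ly6i and in 32.6% for Cd177. Orm1 had other neighbours, Tmem45b (0.968), Lpo, which encodes lactoperoxidase (0.950), and the mucin gene Muc20 (0.948). Cp was closest to the complement gene C7 (0.941) and Slc40a1 to Lrig3 (0.945). In 24 blood libraries, over 11499 genes, Hp was closest to Pygl, glycogen phosphorylase (0.934), Tf to Csf2rb, a cytokine receptor chain (0.929), Fetub to the myeloid receptor Cd33 (0.918) and Slc40a1 to Me1 (0.987).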

How the data were processed

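The authors deposited estimated counts per gene in 4 tables of 30045 genes. Tools listed from the submitters' processing notes, without role or order, are Salmon 1.10.1, STAR 2.6.1d, Trim Galore 0.6.7, cutadapt 3.4 and bcl2fastq 2.19, and the build is Rnor_6.0. The sources used here name no annotation release. Per the labels' protocols, blood RNA was depleted of globin transcripts, and library preparation selected mRNA and kept its strand. All columns were matched to the 46 samples by name, and 0 were left over.

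Counts were rounded to whole numbers. Pairs of libraries of a group with under 15% of genes at p under 0.05 in a chi-square test, a limit chosen after the data were seen, were averaged and counted as 1, which left 41 libraries. Nothing in the labels states that samples came from separate animals, so p-values cover only the variation among the samples given. Exposure was tested within each tissue and time with edgeR 4.0.16 in R 4.3.3 (filterByExpr with a minimum count of 10 and 15 in total, TMM factors, robust quasi-likelihood F test, Benjamini-Hochberg adjustment over all genes tested, threshold 0.05), and differences between times and tissues as interactions. CPM values use TMM-scaled library sizes, with TMM factors of 0.950 to 1.03 in lung and 0.521 to 1.93 in blood, and are not divided by gene length, so levels are compared within a gene. Floors cover counting error only. The script was tested on simulated data.

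Members and gene lists were chosen with earlier results of these data known. Named genes are the members, 20 genes of the iron, haem and acute-phase systems, up to 3 genes with the smallest adjusted p of each list and comparison, defining cell markers, and up to 3 genes most like each member (log2 CPM, prior count 2). A value that was not whole within 0.01 marks reads shared between transcripts. Alternatives were other scalings, no count filter, DESeq2 1.42.0, each library as its own sample, all 4 groups in 1 fit, a replicate block, and leaving out each library. The gene lists at 6 months in lung were also tested without each air library, which was chosen after the data were seen. Differences between tissues were kept for members that passed the count filter in blood. Promoters came from RefSeq (GRCr8), which is not the build of the counts.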

Additional observations from a re-analysis of the deposited data

Results flagged for a closer look

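In 5 of 56 sets of a member and a group of libraries, 1 library lay far from the others by Dixon's test, where chance flags about 1 in 20. At library size alone only the first of them passed that test. Hp was 131 CPM in lung silica 15 at 1 day, with the other 5 silica libraries between 110 and 115 CPM. Tf was 397 CPM in blood silica 11 at 1 day, with the others of that group at 238 to 294 CPM, but 277 CPM at library size alone, within their 197 to 382 CPM. Blood air 08 at 1 day was highest for Tf, at 313 CPM with the others at 204 to 236 CPM (at library size alone 287 CPM, with the others at 207 to 280 CPM), and for Orm1, at 1.27 CPM or 18 counts with the others at 0.210 to 0.588 CPM. Slc40a1 was lowest in blood air 25 at 6 months, at 51.2 CPM with the others at 97.7 to 123 CPM. That library had a TMM factor of 1.93, and at library size alone it was at 99.1 CPM with the others at 106 to 118 CPM.

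The silica effect in lung differed between 6 months and 1 day for Orm1 (log2 difference 3.46), Hp (1.15) and Tf (0.99). Orm1 passed the count filter through silica lungs alone, and the size of its difference rests on few air counts. Hp kept its call in that test in only 8 of 22 alternatives. The effect in blood minus that in lung differed at 6 months for Hp (-2.06), which kept its call in 5 of 24 alternatives, and Tf (-1.84), in 18 of 24.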

How the results depend on the processing

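No alternative turned a called direction round: 0 of 376 values of silica over air of a member and 0 of 525 differences were reversed. In lung at 1 day 128 of 128 values of the members stayed on their side of the threshold, in blood 144 of 144, and in lung at 6 months 90 of 104, where 9 lost and 5 gained a call. Genes called in lung at 1 day, 1836, were 594 with all 4 groups in 1 fit and 1185 to 2240 with 1 library left out. Genes called in lung at 6 months, 3190, were 6396 with every library as its own sample, 6501 with all 4 groups in 1 fit and 57 to 4169 with 1 library left out, which left 1 to 8 members called. In blood at 6 months DESeq2 called 7 genes, and 0 to 2 were called with 1 library left out. With 1 library left out, values in lung at 6 months ranged from 3.39 to 3.85 for Lcn2, 2.19 to 2.88 for Hp, 2.37 to 2.74 for Hpx, 0.60 to 1.06 for Cp, 1.91 to 2.30 for Tf, 1.91 to 2.39 for Fetub and 0.32 to 0.88 for Slc40a1. Slc40a1 there gained the call at 0.57 with every library as its own sample, 0.56 with DESeq2 and 0.52 with all 4 groups in 1 fit.

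The difference between times in lung lost its call for Hp with no filter (1.16) and gained one for Fetub with library size alone (0.90), every library as its own sample (0.80) and DESeq2 (0.91), and for Slc40a1 with every library as its own sample (0.45). With 1 library left out it ranged from 0.67 to 1.16 for Lcn2, 0.85 to 1.57 for Hp, 0.81 to 1.23 for Tf, 0.64 to 1.14 for Fetub and 0.18 to 0.77 for Slc40a1. The difference between tissues at 1 day ranged from -0.84 to -0.63 for Hp and -0.84 to -0.62 for Tf with 1 library left out. At 6 months it ranged from -2.49 to -1.73 for Hp, -2.10 to -1.63 for Tf and -2.40 to -1.86 for Fetub. There Hp lost its call with RLE size factors (-2.11) and library size alone (-2.13), Tf with library size alone (-1.87), and Fetub gained one with library size alone (-2.15) and every library as its own sample (-1.997).

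Lung and blood share 17 sample numbers. Same-numbered libraries correlated at -0.06 to 0.20 in their deviations, 3 of 17 best with their own number. Lung and blood of an animal need not deviate together, so this cannot decide whether a shared number means a shared animal. The main test of the difference between tissues took the samples as unpaired. With the number as a replicate block, which uses fewer libraries, the difference between tissues at 6 months was -1.42 for Hp and -1.39 for Tf, and neither passed. In the same libraries with no block, chosen after the data were seen like library size alone, it was -1.62 for Hp and -1.55 for Tf, and neither passed there. The cause of these losses was not tested. Depth limits Lcn2, Hpx, Orm1 and Cp in blood, and Orm1 in air lungs.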
